A study of Mus musculus with 10 samples.

Results

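The ADAM genes encode membrane proteins with a disintegrin domain and a metalloprotease domain, and the ADAMTS genes encode their secreted relatives with thrombospondin repeats. Members were all genes on the arrays whose symbol began with Adam or Adamts and a number, or with Adamtsl, and 48 of 18193 genes read on the arrays met this rule. They fall into 16 ADAM genes known mainly from testis, sperm or epididymis, called germ cell ADAMs here, 12 other ADAMs, 15 ADAMTS protease genes and 5 ADAMTS-like genes. RNA was measured in male C57BL/6 mice in 5 groups, for a study of the genes that act when chromosomes separate in meiosis I. Spermatogonia were fraction 2 of a Percoll density gradient from testes at day 8, leptotene/zygotene spermatocytes were fraction 5 at day 12, and pachytene spermatocytes were fraction 8 at day 15. Whole testis and a mixture of 11 somatic tissues (skin, spleen, muscle, kidney, colon, intestine, stomach, liver, lung, heart and brain) were also taken at day 15. At these ages the testis is in its first wave of spermatogenesis.

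ADAM proteins carry a prodomain, a metalloprotease domain, a disintegrin domain and a cysteine-rich domain outside the membrane. Broadly expressed ADAMs cut the outer parts of membrane proteins free, a step called shedding, and act in Notch, growth factor and cytokine signalling. A second branch is made in the male germ line. Many of its members lack a working protease site, pass through the testis as pairs of ADAMs held together with the help of chaperones, and are needed for sperm to enter the oviduct and bind the egg coat. ADAMTS proteases are secreted into the extracellular matrix, where they cut proteoglycans such as aggrecan and versican and process procollagens. The ADAMTS-like proteins share the repeats but lack the protease domain.

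Arrays came in 2 designs that carry different probe sets, and each group had 1 array per design (n = 1), so no gene has a replicate and no p-value is given. Values are scaled signals, an arbitrary brightness unit that can be compared between groups for 1 gene but not between genes. Signals under the floor (87.3 on the first design, 47.0 on the second) were raised to it, and a fold against the floor is a lower bound on its size. A gene is said to have risen or fallen where the difference was at least 4-fold, a log2 difference of 2. The error limit of a log2 difference, from 100 probe sets placed on both designs, was 0.35 for leptotene/zygotene against spermatogonia, 0.41 for pachytene against leptotene/zygotene, 0.46 for pachytene against whole testis, 0.57 for whole testis against somatic mix, 0.46 for pachytene against spermatogonia and 0.54 for spermatogonia against whole testis. Differences beyond it are called higher or lower. In a bulk fraction, fewer cells of a type and less RNA per cell cannot be told apart.

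The fractions were checked against marker lists for spermatogonia, pachytene spermatocytes and other testis cells; the leptotene/zygotene label was not checked, as no list for that stage was used. All 8 pachytene markers were above the floor in the pachytene array, and all 8 were below it in spermatogonia. In leptotene/zygotene only 1 of the 8 was below it, and Ldhc had 1855. All 8 were at least 4-fold higher in pachytene than in leptotene/zygotene (median log2 4.74). The spermatid genes Tnp1, Tnp2 and Prm2 were below the floor in all 5 groups, and of 7 spermatid markers 2 were above it in pachytene, Tssk1 (553) and Prm1 (91.0). The summed signal of 10 Sertoli cell markers was 38608 in spermatogonia, 32822 in leptotene/zygotene, 8641 in pachytene, 24926 in whole testis and 4707 in the somatic mix. Spermatogonial markers were not highest in the fraction of that name: 6 of 7 were higher in leptotene/zygotene than in spermatogonia.

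Of the 48 members, 38 were above the floor in at least 1 group and 21 in all 5. The classes differed in where they were detected. Among the 16 germ cell ADAMs, 1 was above the floor in spermatogonia, 2 in leptotene/zygotene, 7 in pachytene, 8 in whole testis and 1 in the somatic mix. Of the 12 other ADAMs, 11 were above the floor in every group, and Adam28 in none. Of the 15 ADAMTS genes, 12 were above the floor in spermatogonia, 8 in leptotene/zygotene, 7 in pachytene, 9 in whole testis and 9 in the somatic mix. Of all probe sets, 55.5% to 64.2% were above the floor in the 5 groups on the first design, and 42.7% to 56.0% on the second. Those shares count every probe set, while a member is read from its brightest, so they are only a rough measure beside the counts.

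A group of 6 germ cell ADAM genes rose in pachytene against leptotene/zygotene. Adam2, Adam3, Adam5, Adam18, Adam32 and Adam1b had pachytene signals from 1162 to 4986, and all of them but Adam2 were below the floor in leptotene/zygotene. Adam2 encodes fertilin beta, a subunit of the sperm surface fertilin pair. Its signal was 52.9 in spermatogonia, 172 in leptotene/zygotene, 4986 in pachytene, 2596 in whole testis and 15.1 in the somatic mix. It was the 1 gene of the 6 already above the floor in leptotene/zygotene, where it was higher than in spermatogonia by at least 1.97-fold (log2 0.98), and it rose 29.0-fold in pachytene against leptotene/zygotene.

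Adam3 encodes cyritestin, which mouse sperm need to pass into the oviduct. Its signal was 3.15 in spermatogonia, 9.53 in leptotene/zygotene, 2364 in pachytene, 939 in whole testis and 3.66 in the somatic mix. Pachytene and whole testis were the groups above the floor, and the rise in pachytene against leptotene/zygotene was at least 27.1-fold.

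Adam5 encodes another ADAM of the testis. Its signal was 26.8 in spermatogonia, 51.3 in leptotene/zygotene, 3614 in pachytene, 2504 in whole testis and 20.3 in the somatic mix, a rise of at least 41.4-fold in pachytene against leptotene/zygotene. Adam18 had 0.934 in spermatogonia, 2.40 in leptotene/zygotene, 1627 in pachytene, 624 in whole testis and 2.18 in the somatic mix, and rose at least 18.6-fold. Both genes therefore separate the groups in the same way as Adam3, with pachytene highest.

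Adam32, read on the second design, was also highest in pachytene and next highest in whole testis, with the other groups below the floor. Its signal was 6.48 in spermatogonia, 19.6 in leptotene/zygotene, 3524 in pachytene, 1249 in whole testis and 28.9 in the somatic mix. The rise in pachytene against leptotene/zygotene was at least 74.9-fold, a bound set by the lower floor of that design and not comparable in size with those of the first design. Adam1b encodes the ADAM1 form that pairs with ADAM2 on the mouse sperm surface. It had 39.9 in spermatogonia, 13.7 in leptotene/zygotene, 1162 in pachytene, 437 in whole testis and 30.8 in the somatic mix, and rose at least 13.3-fold. Other probe sets of Adam1b gave smaller values: on the second design the signal was 224 in pachytene and 4.59 in leptotene/zygotene (at least log2 2.26), and a further probe set on the first design had 107 in pachytene and 52.9 in leptotene/zygotene (at least log2 0.29).

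**Figure D1:**
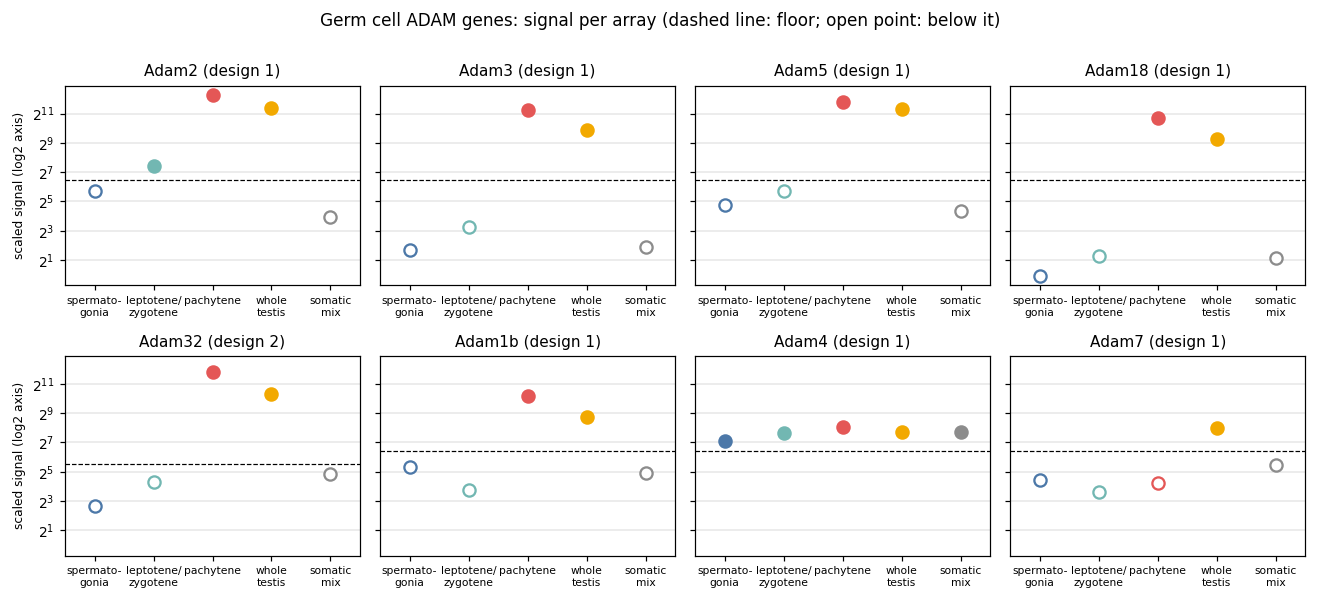
Scaled signal (log2 axis) of the 8 germ cell ADAM genes above the floor in at least 1 group, with 1 point per array, groups along the horizontal axis and the floor as a dashed line; open points lie below it. Adam2, Adam3, Adam5, Adam18, Adam32 and Adam1b sit highest in pachytene and next highest in whole testis. Adam4 is above the floor in all 5 groups, and Adam7 in whole testis alone.

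These 6 genes were also higher in pachytene than in whole testis, without reaching 4-fold. Their log2 differences were 0.53 for Adam5, 0.94 for Adam2, 1.33 for Adam3, 1.38 for Adam18, 1.41 for Adam1b, each beyond the error limit of 0.46, and Adam32 was 2.82-fold higher. The 8 pachytene markers had a median of 1.43 in the same comparison. Against the somatic mix, where all 6 were below the floor, whole testis was higher by at least 29.7-fold for Adam2, 28.7-fold for Adam5, 26.6-fold for Adam32, 10.8-fold for Adam3, 7.15-fold for Adam18 and 5.01-fold for Adam1b. Pachytene against spermatogonia gave at least 57.1-fold for Adam2, and for the other genes the same bounds as against leptotene/zygotene, because the floor set both.

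None of the remaining germ cell ADAMs rose in pachytene. Adam4, a further testis ADAM, had 139 in spermatogonia, 199 in leptotene/zygotene, 264 in pachytene, 215 in whole testis and 210 in the somatic mix. Pachytene was its highest group, higher than spermatogonia (log2 0.92) and, at the error limit, than leptotene/zygotene (0.41). Against whole testis the difference (0.30) lay within the limit. Adam4 was the only germ cell ADAM above the floor in the somatic mix, and its difference between whole testis and somatic mix (log2 0.03) lay within the error limit. Adam7, a gene of the epididymis, had 21.4 in spermatogonia, 12.2 in leptotene/zygotene, 19.1 in pachytene, 252 in whole testis and 44.0 in the somatic mix. Defb42, a beta-defensin gene of the epididymis, had 436 in spermatogonia, 54.3 in leptotene/zygotene, 46.8 in pachytene, 3454 in whole testis and 128 in the somatic mix, and the part of epididymal tissue in the whole testis value of Adam7 was not tested. Lcn8, the other epididymis marker read besides these, was above the floor in the somatic mix alone.

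The other 8 germ cell ADAMs, Adam1a, Adam6a, Adam6b, Adam21, Adam24, Adam25, Adam26a and Adam34, were below the floor in every group. Adam24, Adam25, Adam26a and Adam34 belong to the testase group of sperm proteases. Their highest signal in any group was 34.9, for Adam34 in the somatic mix. A probe set shared by Adam6a and Adam6b was above the floor, with 84.3 in spermatogonia, 91.4 in leptotene/zygotene, 109 in pachytene, 160 in whole testis and 139 in the somatic mix, and was not assigned to either gene. Of 4 probe sets shared by Adam1a and Mapkapk5, left out for the same reason, the brightest had 247 in spermatogonia, 256 in leptotene/zygotene, 160 in pachytene, 241 in whole testis and 388 in the somatic mix.

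Position set the genes that rose in pachytene beside 1 that fell. Adam18, Adam3, Adam5, Adam32 and Adam9 are neighbours on mouse chromosome 8, in this order, with 0 protein-coding genes between them in the GRCm38.p6 gene table. Adam18, Adam3, Adam5 and Adam32 rose in pachytene against leptotene/zygotene, by at least 18.6-fold, 27.1-fold, 41.4-fold and 74.9-fold. Adam9, next to Adam32, fell 6.36-fold. On the Adam18 side, Ido1, Ido2 and Tcim were below the floor in both fractions. On the Adam9 side, Tm2d2 was higher in pachytene by log2 0.99 and Plekha2 by 0.72, while Htra4 was below the floor in both. Adam24, Adam25, Adam26a and Adam34 lie farther along the same chromosome, with 76 protein-coding genes between Adam9 and Adam24, and none of them was above the floor. Adam2 and Adam7 are on chromosome 14, with 17 protein-coding genes between them, and Adam1a and Adam1b are neighbours on chromosome 5.

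**Figure D2:**
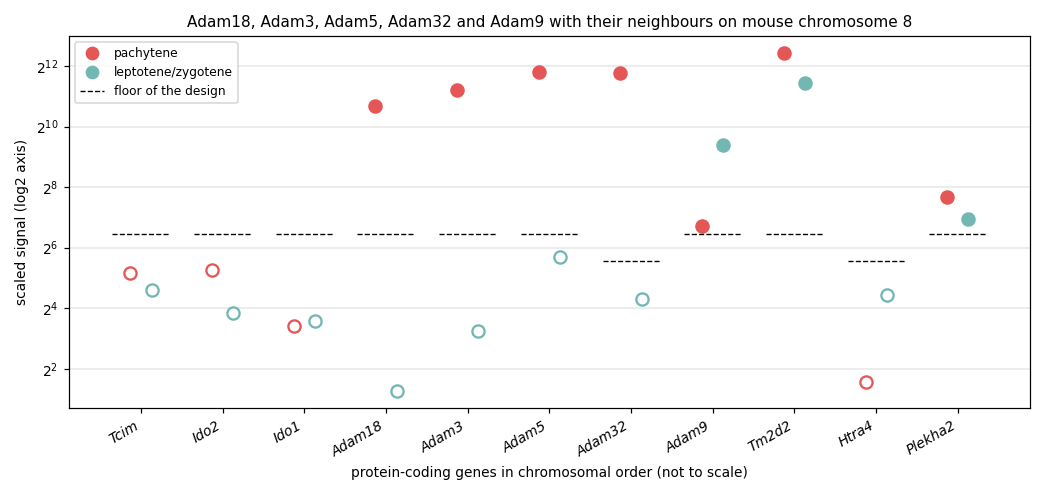
Scaled signal (log2 axis) in pachytene and leptotene/zygotene of 11 protein-coding genes in their order on chromosome 8, evenly spaced, with 1 point per array, the floor of each gene's design as a dashed line and open points below it. Adam18, Adam3, Adam5 and Adam32 are above the floor in pachytene and below it in leptotene/zygotene, and Adam9 has 105 in pachytene and 665 in leptotene/zygotene.

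The promoters of the classes differed in base composition. RefSeq windows from 250 bases before to 50 bases after the start site (GRCm38.p6) were matched for 24 of the 48 members, 7 of them germ cell ADAMs. The number of CG dinucleotides per window ranged from 0 to 4 in these 7 (median 1.0), from 5 to 32 in 9 windows of 7 other ADAMs (median 19.0), from 7 to 41 in 6 ADAMTS windows (median 23.5) and from 8 to 46 in 4 ADAMTS-like windows (median 26.5). The median over 18109 windows of genes read on the arrays was 16.0. No window was matched for Adam2, Adam3, Adam5, Adam18 or Adam32. Of the germ cell ADAMs with a window, Adam1b is the 1 whose signal rose, and Adam1a is its neighbour, whose own probe set was below the floor in every group. Adam10 and Adamts9 are shown beside them because they fell in pachytene, and the capitals mark each CG dinucleotide. Adam1b is read from chr5:121503386-121503685 on the minus strand, Adam1a from chr5:121521646-121521945 on the minus strand, Adam10 from chr9:70678732-70679031 on the plus strand and Adamts9 from chr6:92943485-92943784 on the minus strand.
Adam1b: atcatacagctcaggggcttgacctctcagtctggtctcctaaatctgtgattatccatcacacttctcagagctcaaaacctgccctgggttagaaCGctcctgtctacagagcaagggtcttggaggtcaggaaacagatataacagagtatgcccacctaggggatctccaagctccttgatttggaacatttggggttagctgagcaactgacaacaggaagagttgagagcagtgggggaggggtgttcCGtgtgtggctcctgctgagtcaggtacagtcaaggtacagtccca
Adam1a: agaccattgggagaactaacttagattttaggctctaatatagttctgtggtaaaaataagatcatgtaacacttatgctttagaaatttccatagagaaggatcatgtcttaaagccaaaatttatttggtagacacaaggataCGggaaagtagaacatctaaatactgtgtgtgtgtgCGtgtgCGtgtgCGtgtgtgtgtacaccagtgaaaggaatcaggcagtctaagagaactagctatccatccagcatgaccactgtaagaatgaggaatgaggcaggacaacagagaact
Adam10: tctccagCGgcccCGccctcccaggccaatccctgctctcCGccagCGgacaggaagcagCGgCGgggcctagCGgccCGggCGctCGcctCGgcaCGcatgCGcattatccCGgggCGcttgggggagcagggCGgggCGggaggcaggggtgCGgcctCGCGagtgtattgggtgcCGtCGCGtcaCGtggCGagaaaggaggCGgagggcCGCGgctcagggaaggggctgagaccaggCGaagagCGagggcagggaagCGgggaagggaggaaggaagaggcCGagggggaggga
Adamts9: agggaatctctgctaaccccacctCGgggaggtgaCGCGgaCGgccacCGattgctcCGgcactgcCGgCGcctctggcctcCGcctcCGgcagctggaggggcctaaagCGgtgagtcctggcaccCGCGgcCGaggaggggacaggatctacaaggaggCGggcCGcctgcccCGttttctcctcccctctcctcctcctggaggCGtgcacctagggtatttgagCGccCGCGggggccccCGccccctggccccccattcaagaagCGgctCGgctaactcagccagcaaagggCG

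The Adam1b window holds 2 CG dinucleotides and the Adam1a window 4, against 32 in the Adam10 window and 25 in the Adamts9 window. Searched on both strands, CAACTG, a match to the core of MYB sites, was in 3 of the 7 germ cell ADAM windows (Adam1b, Adam6a and Adam6b), 2 of the 9 other ADAM windows and none of the 10 ADAMTS and ADAMTS-like windows. It was in 11.9% of windows of genes read on the arrays. The SP1 motif GGGCGG was in none of the germ cell ADAM windows, 5 of the 9 other ADAM windows, 5 of 6 ADAMTS windows and 4 of 4 ADAMTS-like windows, against 52.3% of windows of genes read on the arrays. TATAAA was in 2, 0, 1 and 1 of the windows of these classes, in the same order, against 9.77%. The 2 germ cell ADAM windows with it were those of Adam6a and Adam6b, which also hold CAACTG. These genes are neighbours on chromosome 12 with 0 protein-coding genes between them, so their matches may not be independent. The CRE motif TGACGTCA was in none of the 26 member windows (2.49% of windows of genes read on the arrays), and GTTGCC, part of RFX sites, was in 1, a window of Adam19 (12.8%). A match is a description of these letters and marks no bound factor.

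Among the other ADAMs, 2 genes of membrane protein shedding fell in pachytene and none rose. Adam10, the main sheddase of Notch receptors, had 1920 in spermatogonia, 2009 in leptotene/zygotene, 309 in pachytene, 1426 in whole testis and 1598 in the somatic mix. Pachytene was the low group, 6.51-fold below leptotene/zygotene, 4.62-fold below whole testis and 5.18-fold below the somatic mix. With the mean over its probe sets the difference against leptotene/zygotene was -0.39 on the log2 scale and not called. Adam9, a sheddase of broad distribution, had 646 in spermatogonia, 665 in leptotene/zygotene, 105 in pachytene, 420 in whole testis and 399 in the somatic mix. It fell 6.36-fold in pachytene against leptotene/zygotene, a call lost with the floor at the 60th percentile (log2 -1.57) and with log2 of signal plus floor (-1.97). Its fold in pachytene against whole testis was 4.01, at the threshold, and the fall was not called under 5 of 10 alternatives, with log2 values from -2.31 to -0.90. For Adam10 in that comparison the values ran from -2.51 to -1.85 and 4 of 9 alternatives gave less than 4-fold.

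Of the 11 other ADAMs measured in pachytene against leptotene/zygotene, 7 were lower beyond the error limit and none higher, against 44.0% of all genes lower and 30.0% higher. Other scalings gave 4 to 8 lower and 2 higher. Adam17, which releases tumour necrosis factor and EGF receptor ligands, had 425 in spermatogonia, 588 in leptotene/zygotene, 220 in pachytene, 492 in whole testis and 216 in the somatic mix (log2 -1.42 in pachytene against leptotene/zygotene). Its other measured probe set gave -1.26. Adam12 had -1.02, Adam23 -0.81, Adam15 -0.69 and Adam8 -0.64, while a further probe set of Adam15 gave 0.28. Adam11, which lacks protease activity and acts in neurons, was the gene with the highest value of the class (0.33), within the limit. In leptotene/zygotene against spermatogonia the 11 genes had a median of 0.04, with 3 higher and 3 lower (24.1% and 22.2% of all genes). In whole testis against somatic mix they had a median of -0.04, with 1 higher and 3 lower (29.0% and 30.6% of all genes). Both medians changed sign with other scalings, lying between -0.02 and 0.22 and between -0.16 and 0.18. Adam17 had a log2 difference of 1.19 in whole testis against somatic mix, which its other measured probe set did not share (-0.09), and Adam22, a brain ADAM that binds LGI1, was lower (-1.25).

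Marker transcripts of Sertoli cells, Leydig cells and spermatogonia had lower signals alongside these falls, while those of macrophages and blood did not. In pachytene against leptotene/zygotene, 10 of 10 Sertoli markers were lower beyond the limit and 7 fell, with a median of -2.48, and 4 of 4 Leydig markers were lower, with a summed signal of 401 in pachytene and 4049 in leptotene/zygotene. Of 11 measured stromal and vascular markers, 7 were lower and 1 higher (median -0.77). Of 6 measured spermatogonia markers, 6 fell (median -2.75). Of 5 measured macrophage and blood markers, 4 were higher and 0 lower (median 0.785). The Sertoli marker Clu still had 3831 in pachytene. The part of these cell types in the falls of Adam9, Adam10 and the ADAMTS genes was not tested.

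Several ADAMTS genes had their highest signal in spermatogonia and lower signals in the later fractions. Adamts1, which cuts versican and aggrecan, had 1770 in spermatogonia, 521 in leptotene/zygotene, 261 in pachytene, 184 in whole testis and 315 in the somatic mix. It was lower in leptotene/zygotene than in spermatogonia by log2 1.76 in size, short of the threshold, and fell 6.78-fold in pachytene against spermatogonia. Spermatogonia stood 9.62-fold above whole testis.

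Adamts4, an aggrecanase, had 441 in spermatogonia, 65.5 in leptotene/zygotene, 15.6 in pachytene, 94.1 in whole testis and 92.2 in the somatic mix. It fell at least 5.06-fold in leptotene/zygotene against spermatogonia, a call lost with the floor at the 60th percentile (log2 -0.97) and with log2 of signal plus floor (-1.79). Its second probe set had 90.1 in leptotene/zygotene and 354 in spermatogonia (log2 -1.97), just under 4-fold. Adamtsl2, whose product binds fibrillin in the matrix, was the other member that fell in this comparison, with 494 in spermatogonia, 116 in leptotene/zygotene, 98.9 in pachytene, 95.4 in whole testis and 289 in the somatic mix (4.24-fold). That fold is closer to the threshold than the error limit, and with log2 of signal plus floor the difference was -1.73.

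Adamts5, the other main aggrecanase, had 2446 in spermatogonia, 1645 in leptotene/zygotene, 493 in pachytene, 1245 in whole testis and 241 in the somatic mix. It was the 1 ADAMTS gene that rose in whole testis against the somatic mix (5.17-fold), and it fell 4.96-fold in pachytene against spermatogonia, with -1.91 and -1.94 on the log2 scale under median scaling and scaling to the shared probe sets. Spermatogonia stood 10.2-fold above the somatic mix. Its other measured probe sets gave 1.09 and 1.31 on the log2 scale in whole testis against somatic mix, in the same direction and below 4-fold. Adamts1 and Adamts5 are neighbours on chromosome 16, with 0 protein-coding genes between them, and Adamts1 was lower in whole testis than in the somatic mix (log2 -0.77).

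Adamts9, a proteoglycan-cutting enzyme, had 1235 in spermatogonia, 695 in leptotene/zygotene, 153 in pachytene, 586 in whole testis and 335 in the somatic mix. It fell 4.55-fold in pachytene against leptotene/zygotene and 8.09-fold against spermatogonia. Its other probe sets gave -2.07 (a bound, with pachytene at the floor) and -0.61 in pachytene against leptotene/zygotene, so that 1 of them was far from the threshold, and under 4 of 10 alternatives the difference was below 4-fold, between -1.89 and -1.66 on the log2 scale. Adamts12 had 238 in spermatogonia, 135 in leptotene/zygotene, 89.8 in pachytene, 259 in whole testis and 236 in the somatic mix, without a 4-fold difference in any comparison.

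**Figure D3:**
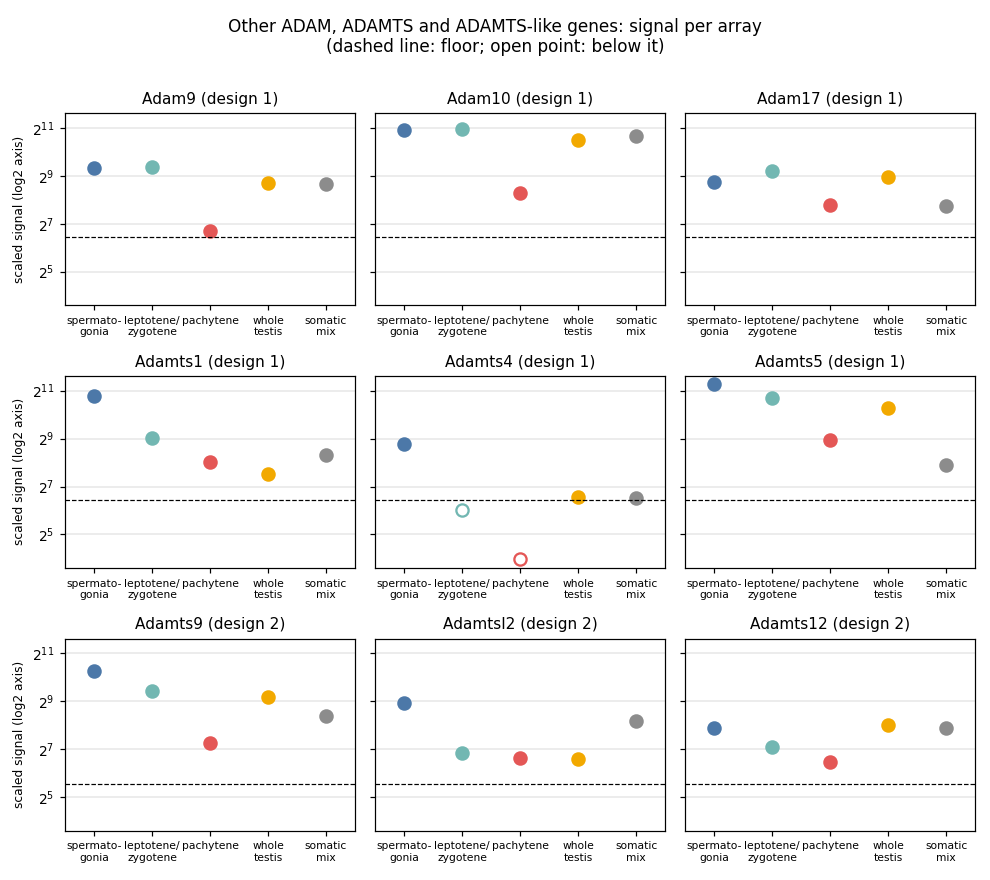
Scaled signal (log2 axis) of 3 other ADAM genes, 5 ADAMTS genes and Adamtsl2 in the 5 groups, with 1 point per array, the floor as a dashed line and open points below it. Adam9 and Adam10 are lowest in pachytene, and Adamts1, Adamts4, Adamts9 and Adamtsl2 are highest in spermatogonia.

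Of 8 ADAMTS genes above the floor in both leptotene/zygotene and spermatogonia, 6 were lower in leptotene/zygotene beyond the limit and none higher, against 22.2% of all genes lower and 24.1% higher. A further 4 genes, Adamts4, Adamts7, Adamts8 and Adamts20, were above the floor in spermatogonia alone of these groups, so they could only come out lower and add nothing to that count. The shares of all genes, here and in the next comparison, do include genes above the floor in only 1 group, unlike the member counts. In pachytene against spermatogonia, 7 ADAMTS genes were above the floor in both groups and 6 of them were lower, none higher, against 42.6% of all genes lower. Over the 12 genes read there, 5 of them through spermatogonia alone, 4 fell (Adamts1, Adamts4, Adamts5 and Adamts9), and 1 was higher with the values as deposited and with scaling to the shared probe sets. In whole testis against somatic mix, 2 of 10 were higher and 3 lower (median -0.02, between -0.14 and 0.14 under other scalings). These counts were near the shares of all genes, 29.0% higher and 30.6% lower. Low levels of Adamts3, Adamts7, Adamts8, Adamts18, Adamts19 and Adamts20 lay above the floor in 1 or 2 groups only, and Adamts6 was below it in all 5. Adamts16 had 219 in spermatogonia, 230 in leptotene/zygotene, 221 in pachytene, 277 in whole testis and 433 in the somatic mix, and stood within the error limit in each comparison of fractions, while its other probe set had 71.2 in leptotene/zygotene and 117 in spermatogonia (log2 -0.72, beyond the limit).

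Immediate-early genes, which cells switch on within minutes of a stimulus, were higher in spermatogonia than in whole testis, as were several ADAMTS genes. Of 10 such genes, a list added after the values were seen, 10 were at least 4-fold higher in spermatogonia than in whole testis (median log2 4.34). Their summed signal was 44241 in spermatogonia, 32854 in leptotene/zygotene, 11611 in pachytene, 1811 in whole testis and 4010 in the somatic mix. In leptotene/zygotene against spermatogonia 7 of them were lower, none by 4-fold (median -0.47). In pachytene against whole testis 9 of them were higher (median 2.08). Of 9 measured ADAMTS genes 2 were higher and 4 lower there, near the shares of all genes (25.7% higher and 38.2% lower). Per the labels' protocols, testis cells were released with enzymes before the gradient; the same text stands on every sample's label, so whether whole testis was treated so is not given there. Adamts1, Adamts4 and Adamtsl2 rose in spermatogonia against whole testis (log2 3.27, 2.23 and 2.37), and Adamts10 (1.59), Adamts7 (at least 1.08), Adamts9 (1.08) and Adamts5 (0.97) were higher without reaching 4-fold. These were 7 of 17 ADAMTS and ADAMTS-like genes measured there, with none lower, against 25.0% of all genes higher and 24.8% lower. Of the 13 ADAMTS genes, 4 were read through spermatogonia alone and could only come out higher. With scaling to the shared probe sets, 6 of 13 ADAMTS genes were higher and 3 lower. The stromal and vascular markers were higher too, 9 of 12 beyond the limit with a median of 0.80, and the Sertoli markers had a median of 1.35. The part of these in the ADAMTS values was not tested.

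Set side by side in pachytene against leptotene/zygotene, the rises were among the germ cell ADAMs. Of these 16 genes, 7 were measured in this comparison and 6 rose, with a median of 4.76. Because 5 of the 7 were above the floor in pachytene alone of these groups, they could only come out higher, and Adam2 and Adam4 were the genes read in both. Of 20 ADAMTS and ADAMTS-like genes, 12 were measured, none rose and 1 fell, with a median of -0.46 (-0.03 with the scaling on shared probe sets). Of 12 other ADAMs, 11 were measured, none rose and 2 fell. Over all genes 8.70% rose and 9.33% fell, with a median of -0.22, so the 1 fall among 12 ADAMTS and ADAMTS-like genes was near the share of all genes. That split of 1176 higher and 1262 lower calls moved to 1537 and 607 with scaling to the shared probe sets, to 1505 and 750 with median scaling and to 1206 and 843 with quantile normalization.

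In leptotene/zygotene against spermatogonia no member rose and 2 of 29 measured fell, against 0.310% and 0.279% of all genes. In pachytene against whole testis no member rose and 2 of 33 fell, against 2.35% and 4.39%, a split of 325 and 608 over all genes that became 694 and 359 with median scaling, 684 and 827 as deposited and 478 and 451 with scaling to the shared probe sets. In whole testis against somatic mix 7 of 34 rose and none fell, against 7.22% and 5.70%, and the 7 were the 6 germ cell ADAMs and Adamts5. Of the 8 germ cell ADAMs measured there, 7 were above the floor in whole testis alone of these groups. They could only come out higher, and the 6 that rose were among them. The split of 1082 and 855 over all genes became 1288 and 666 as deposited. In pachytene against spermatogonia 6 of 35 rose and 7 fell, against 10.0% and 12.1%, and in spermatogonia against whole testis 3 of 36 rose and 6 fell, against 1.97% and 5.17%. The split of 1376 and 1655 over all genes in pachytene against spermatogonia became 1743 and 1094 with median scaling and 1771 and 1001 with the shared probe sets. In leptotene/zygotene against whole testis none of 33 rose and 6 fell, against 1.19% and 4.15%. Against the somatic mix, 3 of 30 rose in spermatogonia and none fell (3.91% and 6.51% of all genes), 1 of 28 rose in leptotene/zygotene and none fell (5.36% and 7.25%), and 6 of 32 rose in pachytene and 1 fell (11.6% and 12.2%). These comparisons share arrays with each other and are not independent. The floor also fixed the direction of most germ cell ADAM calls in them. Each of the 6 rises in pachytene, whether over spermatogonia or over somatic tissue, came from a gene detected in pachytene only of the pair. Such genes could only come out higher. For the falls below whole testis the detected side was whole testis only, except for Adam2 in the leptotene/zygotene fraction.

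**Figure D4:**
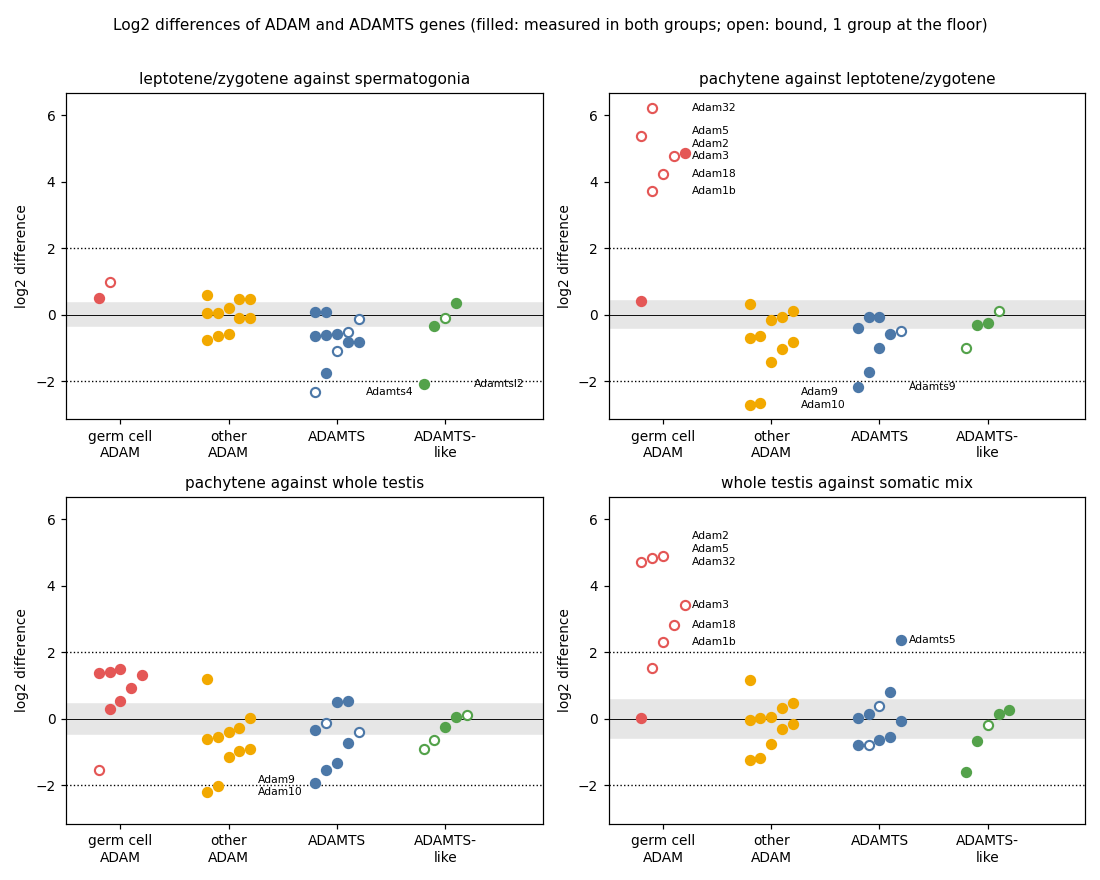
Log2 difference (vertical axis) of each measured member in 4 comparisons, by class along the horizontal axis; filled points were above the floor in both groups, open points are bounds with 1 group at the floor, the grey band is the error limit and dotted lines mark 4-fold. In pachytene against leptotene/zygotene, 6 germ cell ADAMs lie between 3.73 and 6.23, and no other class has a point above 0.33.

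Genes known to act on these proteases were read beside them. The list for ADAM3 maturation was built from mouse knockouts in which sperm lose ADAM3. In pachytene against leptotene/zygotene, 8 of its 11 genes were measured. Of these, 4 rose and none fell (median 1.72), against 8.70% and 9.33% of all genes. Clgn, also on the pachytene marker list, encodes the calmegin chaperone that pairs ADAM1 with ADAM2. It had 75.1 in spermatogonia, 336 in leptotene/zygotene, 7586 in pachytene, 4748 in whole testis and 9.28 in the somatic mix. Cmtm2a (log2 at least 5.05), Cmtm2b (6.92) and Rnase10 (2.84) were the others that rose. Tpst2 was lower (-1.03), and Ace was higher without reaching 4-fold (0.605). Both were lower in pachytene than in whole testis (-0.54 and -0.50). Tex101 and Ly6k, which encode GPI-anchored proteins needed for ADAM3 on sperm, were already high earlier: Ly6k had 807 in spermatogonia, 3643 in leptotene/zygotene, 5565 in pachytene, 3394 in whole testis and 139 in the somatic mix. The testis chaperone genes Calr3 and Pdilt were below the floor in every group, as was Prss37, also on this list. Of the sperm-egg fusion list, Izumo1 had 48.6 in pachytene and 54.1 in leptotene/zygotene, near the floor of its design, and no measured gene of this list rose or fell in that comparison.

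Inhibitors, and genes that act with the shedding ADAMs, included falls in pachytene. Of 5 inhibitor genes, 4 were lower beyond the limit against leptotene/zygotene and 2 fell. Over all genes in that comparison 44.0% were lower and 30.0% higher, while 9.33% fell and 8.70% rose. Timp3, an inhibitor of ADAM10, ADAM17 and several ADAMTS enzymes, had 3440 in spermatogonia, 1841 in leptotene/zygotene, 377 in pachytene, 268 in whole testis and 1946 in the somatic mix, and fell in pachytene against leptotene/zygotene (log2 -2.29). Reck, a membrane-anchored inhibitor, fell too (-2.45, a bound). Of 10 measured genes for the maturation of shedding ADAMs, 6 were lower and 3 fell: Rhbdf2, an iRhom needed by ADAM17 (log2 -2.16, a bound), Tspan14 (-2.31, a bound) and Tspan17 (-2.09), the last pair being tetraspanins that bind ADAM10. Of 7 measured shed ligands and receptors, 5 were lower and 4 fell: Notch1 (-2.17), Notch2 (-2.30), Kitl (-2.88) and App (-2.83). Tnf was the 1 higher beyond the limit (0.99). Of 11 measured ADAMTS substrates and matrix partners, 1 rose and none fell, near the shares of all genes, with 4 higher and 2 lower beyond the limit (median 0.18). The gene that rose was Comp, a cartilage matrix protein cut by ADAMTS7 and ADAMTS12, with 65.9 in spermatogonia, 58.3 in leptotene/zygotene, 2897 in pachytene, 640 in whole testis and 241 in the somatic mix. In leptotene/zygotene against spermatogonia, 9 of 11 measured genes of this list were lower and none higher (median -0.68). The shares of all genes were 22.2% lower and 24.1% higher. Of those 11 genes, 4 had 1 group at the floor, Vcan among them (338 in spermatogonia and 41.5 in leptotene/zygotene).

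Different probe sets of 1 member differed in several cases by more than the error limit, but none were beyond it in opposite directions. Of 7 members with several measured probe sets in pachytene against leptotene/zygotene, none had such opposite values, and the counts were 0 of 9 in leptotene/zygotene against spermatogonia, 0 of 8 in pachytene against whole testis and 0 of 9 in whole testis against somatic mix. Adamts5 had log2 values from -1.75 to -1.67 over 3 probe sets on both designs in pachytene against leptotene/zygotene. In leptotene/zygotene against spermatogonia, probe sets of Adamts9 ran from -0.83 to 0.28. Adam2, Adam3, Adam5, Adam18 and Adam32 each had a single probe set. For Adam10 the other probe sets were below the floor in every group, and its values rest on 1.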

How the data were processed

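The authors deposited 1 linear intensity for each probe set of each array, and the submitters' processing notes name GCOS version 1. How the background was corrected, which scaling target was used and which signals counted as detected were not given in the sources used here. Each array was scaled to the mean of the 2% trimmed means of the 5 arrays of its design (trimmed means from 383 to 484 and from 63.4 to 148 before scaling). The floor was the 90th percentile of chemosensory receptor signals on the first design and, with under 20 such probe sets, the median signal on the second. Each gene has the values of its brightest probe set by mean log2 signal, taken on the first design unless only the second had it above the floor. Probe sets naming several genes or none were left out. For the error limit, the root mean square gap between designs of 100 probe sets carried by both was divided by the square root of 2 and multiplied by 1.96. Python 3.11.15, numpy 2.4.6 and pandas 2.3.3 were used, and the functions were tested on simulated data.

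Every member at least 4-fold different in 1 of 4 comparisons, and Adam2, Adam3 and Adamts4, were named with their signals; others were given by counts, or named where they end a range, stand beside a result or sit on a list. Further members (Adam4, Adam7, Adam8, Adam11, Adam12, Adam15, Adam17, Adam22, Adam23, Adamts10, Adamts12, Adamts16 and others) were named after their values were seen. Members and lists were chosen with earlier results of these data known. Protein sequences were not used here. The precision rests on 1 array per group and design; the labels do not say whether the samples numbered 1 and 2 are separate preparations.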

Additional observations from a re-analysis of the deposited data

How the results depend on the processing

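The 11 alternatives covered scaling, floor, probe set choice and each design alone. In 6 comparisons 42 member calls were recomputed, 23 stayed past 4-fold under every alternative that could read them, and none turned its direction. Most germ cell ADAM calls had 1 group below the floor, and their direction could not turn while that group stayed below it. Adam2, Adam3, Adam5, Adam18 and Adam32 had a single probe set each, so 1 design alone gave no second reading of them. With a floor at the 60th percentile the germ cell ADAM median was 3.40 in pachytene against leptotene/zygotene (main 4.76) and 2.06 in whole testis against somatic mix (main 3.13), and members that fell numbered 1 in leptotene/zygotene against spermatogonia (main 2) and 1 in pachytene against whole testis (main 2). With log2 of signal plus floor these were 4.29 for the first median, and 0 and 0 for the falls; falls in pachytene against leptotene/zygotene numbered 1 (main 3) and rises in spermatogonia against whole testis 1 (main 3). Falls in pachytene against whole testis numbered 0 with quantile normalization, median scaling or the shared probe sets and 1 with the mean over probe sets, and rises numbered 1 with the values as deposited (main 0). The ADAMTS and ADAMTS-like median in pachytene against leptotene/zygotene was -0.03 with the shared probe sets (main -0.46); in the 3 comparisons of pachytene with other testis groups the median of all genes moved by 0.15 to 0.36 with that scaling, by 0.28 to 0.33 with median scaling and by 0.13 to 0.17 with quantile normalization. It moved by 0.17 with median scaling and 0.22 as deposited in whole testis against somatic mix, by 0.11 as deposited in leptotene/zygotene against spermatogonia and by -0.20 with the shared probe sets in spermatogonia against whole testis.

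Without replicate 1 or 2, that is on 1 design alone, fewer members were read. Rises numbered 2 to 5 in pachytene against leptotene/zygotene, 0 to 1 in pachytene against whole testis, 1 to 6 in whole testis against somatic mix, 2 to 5 in pachytene against spermatogonia and 1 to 2 in spermatogonia against whole testis. Falls numbered 1 in leptotene/zygotene against spermatogonia on either design, 1 to 2 in pachytene against leptotene/zygotene, 0 to 2 in pachytene against whole testis, 3 to 5 in pachytene against spermatogonia and 1 to 5 in spermatogonia against whole testis. The germ cell ADAM median ran from 4.24 to 4.49, from 0.94 to 1.88 and from 2.84 to 4.73 in pachytene against leptotene/zygotene, pachytene against whole testis and whole testis against somatic mix. No paired analysis was possible because samples with the same number share an array design, a gene's values come from 1 array for each group, so no test was run. The comparisons of pachytene against spermatogonia and spermatogonia against whole testis were added after seeing the data. Genes near the floor, most ADAMTS genes among them, limit what the arrays can show.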
